A study of Homo sapiens with 15 samples.

Results

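The genes described here are 7 genes of superoxide chemistry, taken by symbol from a table of 60286 genes. CYBB, CYBA, NCF1, NCF4 and RAC2 encode parts of the phagocyte NADPH oxidase, and SOD1 and SOD2 encode superoxide dismutases. All 7 were among the 17198 genes that passed the low-count filter and were tested. They were measured in THP-1, an established human monocytic leukaemia cell line labelled as wild type, after addition of bacterial extracellular vesicles (BEVs) or of buffer. NC cells received PBS. EUC and EPL cells received E. coli BEVs at 1 μg/ml of vesicle protein, isolated by ultracentrifugation (UC) in EUC and by precipitation with epsilon-poly-L-lysine (PL) in EPL. SUC and SPL cells received S. aureus BEVs at 10 μg/ml, isolated by UC and by PL. Each of the 5 groups had 3 libraries, the methods of the study give an exposure of 6 h, and the labels state Day 0. Species and dose changed together, so that their effects cannot be told apart. Nothing in the labels ties a replicate to a separate culture, and the p-values measure the spread between these samples, which may be technical.

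The 15 libraries held 14399421 to 16637345 counts on genes. Levels are given as CPM, counts relative to the scaled library total (trimmed mean of M-values), and a differentially expressed gene (DEG) passed both an adjusted p of 0.01 or less and an absolute log2 fold change of 1 or more. Of 8 monocytic markers fixed for the cell line, SPI1, CSF1R, FCGR1A, LYZ, CD33 and ITGAM were well counted, CD14 had group means of 3.77 to 8.87 CPM, and CD68 was near 0. Erythroid markers had no count, and the sums of T cell, NK cell, epithelial and neutrophil granule markers stayed under 2 CPM in each library. The summed level of the 3 fibroblast markers was 0.640 to 0.941 CPM in NC and 2.06 to 6.95 CPM in the BEV groups, and that of the 3 B cell markers was 1.38 to 5.43 CPM over all libraries. Their part in the results was not tested. The share of counts on ribosomal protein genes reached 8.0% in EUC3 and 8.03% in SUC3 and was 5.29% to 6.99% in the other libraries.

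The phagocyte NADPH oxidase moves electrons from cytosolic NADPH across a membrane to oxygen and releases superoxide. Its catalytic core is a membrane flavocytochrome of CYBB and CYBA, which is switched on when a cytosolic complex that includes NCF1 and NCF4 and the GTPase RAC2 join it. Superoxide dismutases turn superoxide into hydrogen peroxide, SOD1 mainly in the cytosol and SOD2 in the mitochondrial matrix.

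The promoters below are shown because CYBB, NCF1 and SOD2 were up-regulated together in the 4 BEV groups. By contrast CYBA, the partner of CYBB, passed no threshold in the edgeR fit of all 15 libraries after the low-count filter. Other settings, given below, brought it past the adjusted p. RefSeq promoters (GRCh38.p14, 250 bases before to 50 after a start) were matched for 4 of the 7 genes, with 4 starts for SOD2, of which 1 is shown. Capitals mark GAGGAA, the core read by the myeloid factor PU.1, in CYBB and NCF1, and the GC box GGGCGG in SOD2 and CYBA, on either strand (TTCCTC and CCGCCC are the same letters on the other strand). Sequences run 5′ to 3′ along the strand of the gene.
CYBB, chrX:37779809-37780108, plus strand: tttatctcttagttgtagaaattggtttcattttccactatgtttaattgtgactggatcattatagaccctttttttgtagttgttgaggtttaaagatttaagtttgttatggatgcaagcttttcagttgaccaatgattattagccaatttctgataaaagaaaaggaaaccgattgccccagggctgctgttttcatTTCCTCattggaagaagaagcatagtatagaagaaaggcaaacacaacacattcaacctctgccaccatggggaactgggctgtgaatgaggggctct
NCF1, chr7:74773761-74774060, plus strand: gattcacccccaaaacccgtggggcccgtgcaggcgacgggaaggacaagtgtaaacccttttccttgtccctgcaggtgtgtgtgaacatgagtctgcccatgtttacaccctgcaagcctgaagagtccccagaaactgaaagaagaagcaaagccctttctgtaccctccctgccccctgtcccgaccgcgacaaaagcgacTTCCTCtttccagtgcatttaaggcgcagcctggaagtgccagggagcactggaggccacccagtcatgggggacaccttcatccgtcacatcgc
SOD2, chr6:159693192-159693491, minus strand: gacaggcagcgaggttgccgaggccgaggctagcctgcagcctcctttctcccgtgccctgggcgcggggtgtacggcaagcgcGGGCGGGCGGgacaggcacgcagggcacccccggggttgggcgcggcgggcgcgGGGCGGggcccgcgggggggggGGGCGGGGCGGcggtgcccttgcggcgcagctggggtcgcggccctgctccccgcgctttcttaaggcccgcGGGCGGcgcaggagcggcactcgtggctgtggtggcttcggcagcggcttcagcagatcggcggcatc
CYBA, chr16:88651004-88651303, minus strand: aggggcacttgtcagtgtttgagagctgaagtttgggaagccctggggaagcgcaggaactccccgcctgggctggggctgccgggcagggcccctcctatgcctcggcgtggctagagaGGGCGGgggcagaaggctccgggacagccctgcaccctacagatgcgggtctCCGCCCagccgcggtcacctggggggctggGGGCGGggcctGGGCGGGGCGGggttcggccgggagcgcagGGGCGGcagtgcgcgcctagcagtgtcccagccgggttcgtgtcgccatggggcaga
The CYBB and NCF1 promoters each held 1 GAGGAA, on the other strand, and both held a core of interferon response elements (GAAA, any pair of bases, GAAA). The printed SOD2 promoter, with a GC content of 78.3%, and the CYBA promoter each held 6 GGGCGG, some of them overlapping, and neither held GAGGAA, although 2 of the 3 SOD2 windows not shown did, once each. Over 35116 promoters of the same length, 27.9% held GAGGAA, 3.57% the interferon core and 45% GGGCGG, both strands searched. TGANTCA, the AP-1 letters found in 7.71% of promoters, was in none of these windows, and an NF-kappa B match, found in 11.3%, was in the CYBA window. These matches describe letters and not binding.

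The first question was which of the 7 genes responded to BEVs at all. CYBB, NCF1 and SOD2 were up-regulated DEGs in each of the 4 comparisons with NC, and CYBA, NCF4, RAC2 and SOD1 were not DEGs in any. The fold changes lay between 42.0 and 74 for SOD2, between 10.2 and 11.9 for CYBB and between 4.50 and 5.52 for NCF1. In bulk RNA a higher level per cell and a larger number of cells with the RNA cannot be told apart. Thus 3 of 7 genes were up-regulated in all 4 comparisons, against 6.33% of the tested genes, and 0 of 7 were down-regulated in all 4, against 2.41%. Up-regulated DEGs made up 9.43%, 9.38%, 6.82% and 7.76% of the tested genes in EUC, EPL, SUC and SPL, and down-regulated DEGs 5.75%, 5.15%, 3.06% and 3.7%. The same 3 genes were those past the adjusted p alone, which 30.5%, 29.2%, 21.5% and 23.9% of all genes passed in EUC, EPL, SUC and SPL. Libraries did not overlap those of NC for 6, 5, 6 and 7 of the 7 genes in these groups, against 50.8%, 52.1%, 46.7% and 54.4% of all genes, so that such a gap by itself was common. Scaling by library size alone moved the median log2 fold change of all genes to -0.16 in EUC and to between -0.11 and -0.13 in the other groups, and moved the up-regulated share of EUC DEGs from 62.1% to 50.8%. The 4 comparisons share their NC libraries and are not independent of each other.

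**Figure D1:**
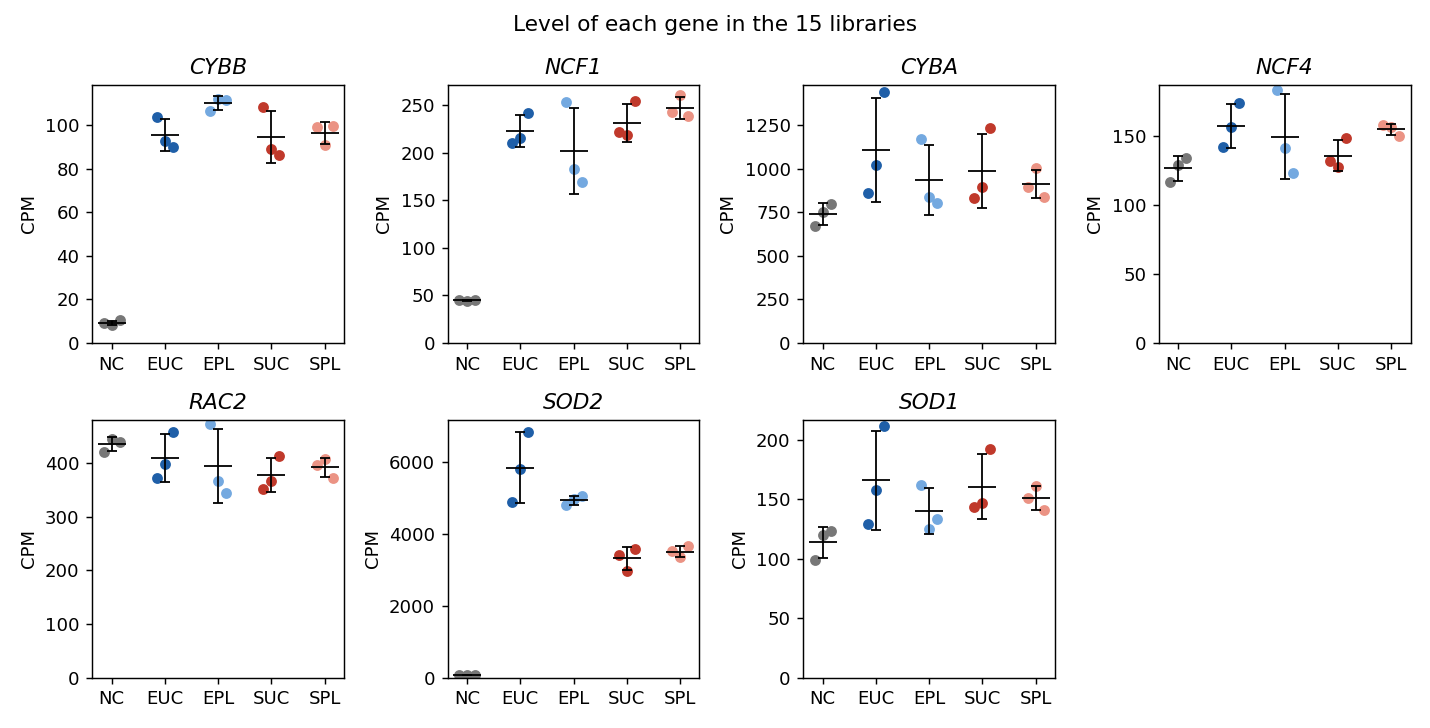
CPM of each of the 7 genes (vertical axes, from 0) in the 3 libraries of NC, EUC, EPL, SUC and SPL. Points are libraries, in replicate order from left to right, and the bar and whiskers are the mean and SD. CYBB, NCF1 and SOD2 lay far above NC in all 12 BEV libraries, and the RAC2 groups overlapped in part.

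CYBB, on chromosome X (hg38, GENCODE 44, 37780018 to 37813461, plus strand), encodes the catalytic subunit that carries the electrons. In NC its level was 9.02, 8.41 and 10.3 CPM. In EUC it was 104, 92.8 and 90.1 CPM, and in EPL it was 106, 112 and 112 CPM. The S. aureus groups were alike, with 108, 89.3 and 86.3 CPM in SUC and 99.5, 90.8 and 99.6 CPM in SPL. The lowest of the 12 BEV libraries, a SUC library at 86.3 CPM, was far above the highest NC library at 10.3 CPM. The log2 fold change was 3.37 (SE 0.111, edgeR quasi-likelihood test with Benjamini-Hochberg adjustment, adjusted p = 1.59e-13) in EUC. It was 3.57 in EPL (SE 0.112, edgeR adjusted p = 8.74e-14), 3.35 in SUC (SE 0.111, edgeR adjusted p = 2.75e-13) and 3.38 in SPL (SE 0.111, edgeR adjusted p = 2.18e-13). The order of the group means was EPL 110.2, SPL 96.6, EUC 95.6, SUC 94.7 and NC 9.25 CPM, and among the BEV groups the neighbours other than EPL differed by less than their SDs. Of the 17198 tested genes, 314 to 447 had a larger log2 fold change than CYBB in the same comparison.

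CYBA, on chromosome 16 (88643275 to 88651083, minus strand), encodes the smaller flavocytochrome subunit, which docks the cytosolic complex. Its NC level was 673, 754 and 797 CPM. The EUC libraries spread widely, at 861, 1019 and 1443 CPM, and so did EPL, at 1169.6, 836 and 806 CPM. SUC had 834, 897 and 1232 CPM, and SPL had 898, 1002 and 838 CPM. All 12 BEV libraries were above all 3 NC libraries, but by little at the lower end, where an EPL library at 806 CPM stood beside an NC library at 797 CPM. Over all tested genes, 33.6% had 12 BEV libraries that did not overlap the 3 NC libraries, and 5 of the 7 genes here did. For CYBA the log2 fold change was 0.58 in EUC (95% interval 0.19 to 0.97, edgeR adjusted p = 0.017). It was 0.34 in EPL (interval -0.05 to 0.72), 0.41 in SUC (0.03 to 0.80) and 0.30 in SPL (-0.08 to 0.69), with edgeR adjusted p = 0.157, 0.0981 and 0.23. The intervals thus leave room for a rise of less than 2-fold and exclude one of the size seen for CYBB. Per kilobase of the MANE Select transcript, the NC level was 1071 CPM for CYBA and 2.16 CPM for CYBB, and in EUC it was 1601 and 22.4 CPM, so that on this scale CYBA stayed far above its partner in both.

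The level of CYBA differed between libraries of the same group. Its highest levels were in EUC3, SUC3 and EPL1, followed by EUC2, and EUC3 and SUC3 also had the highest ribosomal protein shares. Without these 4 libraries the log2 fold change of CYBA was 0.21, 0.14, 0.22 and 0.30 in EUC, EPL, SUC and SPL, and EUC then rested on 1 library. As the 4 libraries are those with the highest levels of CYBA, lower folds in EUC, EPL and SUC and a smaller spread follow from leaving them out, and no p is given for them. Leaving out EUC1, EPL1 or SUC3 alone brought the EUC comparison of CYBA to an adjusted p under 0.01 (edgeR adjusted p = 0.00338, 0.00978 and 0.00806). DESeq2 on all 15 libraries gave CYBA an adjusted p of 0.00623 in EUC. Without the low-count filter, CYBA passed in EUC, EPL and SUC (edgeR adjusted p = 1.88e-08, 0.00354 and 9.97e-05), with an SE of 0.096 in each. With NC and 1 BEV group alone in the fit, CYBA passed in SPL (edgeR adjusted p = 3.38e-05) and not in EUC, EPL or SUC. EPL1 had a ribosomal protein share of 6.24%, under the 6.28% to 6.99% of the NC libraries but above EPL2 at 5.41% and EPL3 at 5.48%. In each of the 5 groups the library with the highest share also had the highest level of CYBA. What the share contributes was not tested.

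**Figure D2:**
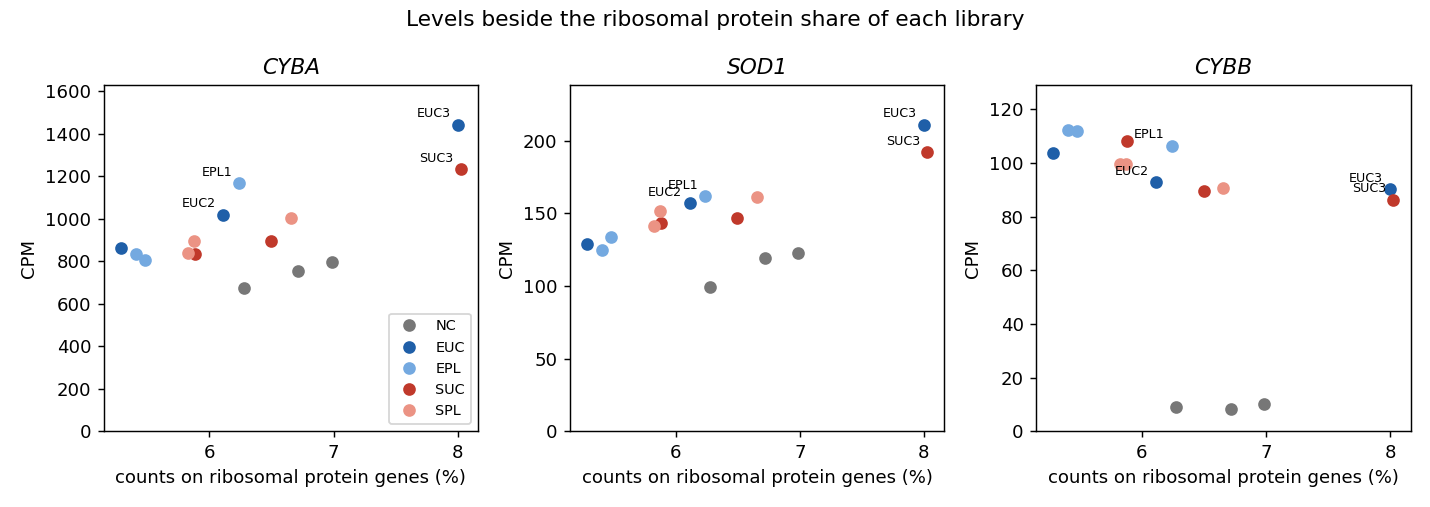
CPM of CYBA, SOD1 and CYBB (vertical axes, from 0) against the percent of counts on ribosomal protein genes in the 15 libraries, coloured by group, with EUC2, EUC3, EPL1 and SUC3 named. EUC3 and SUC3, at 8.0% and 8.03%, were the highest libraries for CYBA and SOD1 and among the lowest BEV libraries for CYBB.

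NCF1, on chromosome 7 (74774011 to 74789315, plus strand), encodes the organiser that carries the cytosolic complex to the membrane. The 3 NC libraries were nearly equal, at 44.8, 44.5 and 45.2 CPM. EUC had 211, 216 and 242 CPM, and EPL had 253, 183 and 169 CPM. SUC had 222, 219 and 255 CPM, and SPL had 243, 261 and 239 CPM. The lowest BEV library, EPL3, was still far above NC, and EPL had the widest spread because EPL1 stood above the other two. NCF1 had a log2 fold change of 2.31 in EUC (SE 0.127, edgeR adjusted p = 1.26e-10) and 2.17 in EPL (SE 0.126, edgeR adjusted p = 3.07e-10). It was 2.37 in SUC (SE 0.127, edgeR adjusted p = 1.47e-10) and 2.47 in SPL (SE 0.127, edgeR adjusted p = 7.85e-11). The group means ran from SPL at 248 CPM through SUC at 232, EUC at 223 and EPL at 202 CPM to NC at 44.8 CPM, and each neighbouring pair of BEV groups differed by less than the larger of its SDs.

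NCF1 has near-identical copies, NCF1B and NCF1C, and the sources used here do not say how reads matching several copies were counted, so that the level of NCF1 itself is uncertain. Both copies were up-regulated DEGs in each comparison with NC, NCF1B with log2 fold changes of 2.67, 2.59, 2.68 and 2.89 and NCF1C with 2.60, 2.39, 2.64 and 2.63 in EUC, EPL, SUC and SPL. With the counts of the 3 copies summed, the log2 fold change was 2.47, 2.31, 2.51 and 2.59, somewhat larger than for NCF1 alone. NCF1 took 53.9% ± 1.26 (SD, n = 3) of the counts on the 3 copies in NC and 49.1% ± 1.47 (SD, n = 12) in the BEV libraries. The difference was -4.88 percentage points (two-sided exact permutation test, p = 0.0022, the smallest that 455 arrangements allow). The test took the 12 BEV libraries of 4 groups as 1 set, and its p rests on their lack of overlap with the 3 NC libraries. The NC libraries lay between 53.1% and 55.4% and the BEV libraries between 45.8% and 50.8%, with EUC3 and SUC3 lowest, and the exact binomial interval of NC1, the library with the fewest counts on the copies, was 52.6% to 58.1%, which covers counting error only.

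**Figure D3:**
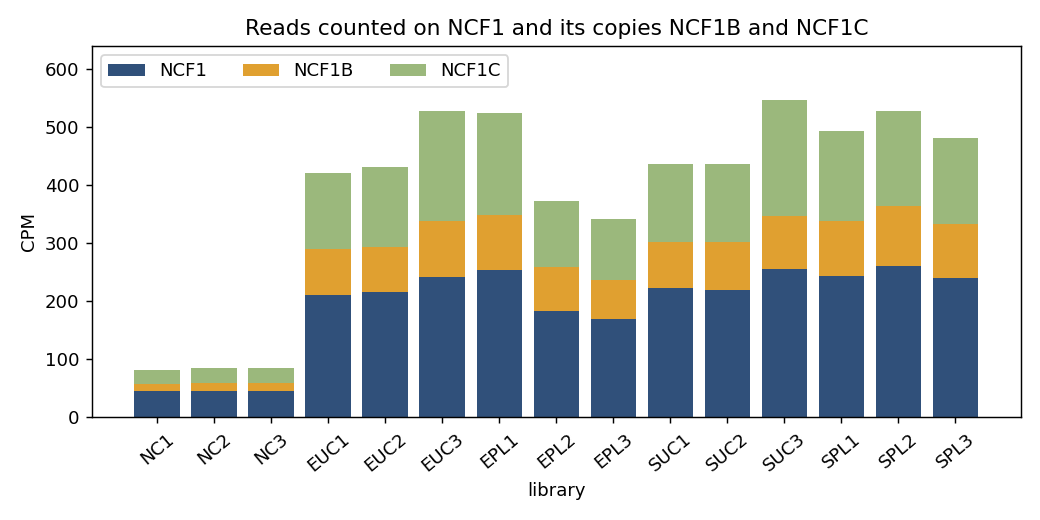
CPM counted on NCF1, NCF1B and NCF1C (stacked bars, vertical axis) in each of the 15 libraries. NCF1 is 53.1% to 55.4% of each NC bar and 45.8% to 50.8% of each BEV bar, and all 3 copies are higher in every BEV library than in NC.

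NCF4, on chromosome 22 (36860988 to 36878017, plus strand), encodes a regulatory subunit that binds a membrane lipid of phagosomes. Its NC level was 117, 129 and 134 CPM. EUC had 142, 157 and 174 CPM and EPL had 184, 142 and 124 CPM. SUC had 132, 128 and 149 CPM and SPL had 158, 157 and 151 CPM. EUC and SPL lay above all NC libraries, whereas EPL and SUC overlapped them. NCF4 had a log2 fold change of 0.32 in EUC (95% interval 0.06 to 0.57, edgeR adjusted p = 0.0447) and 0.24 in EPL (-0.01 to 0.50, 0.127). It was 0.10 in SUC (-0.15 to 0.36, 0.57, and -0.0197 with scaling by library size) and 0.29 in SPL (0.04 to 0.55, 0.0738). With NC and 1 BEV group alone in the fit, NCF4 passed in SPL (edgeR adjusted p = 3.34e-05) and not in EUC, EPL or SUC.

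RAC2, on chromosome 22 (37225270 to 37259594, minus strand), encodes the GTPase of the complex in blood cells. Its NC level was 421, 446 and 439 CPM. EUC had 372, 399 and 459 CPM and EPL had 474, 367 and 345 CPM. SUC had 352, 367 and 413 CPM and SPL had 397, 408 and 373 CPM. All SUC and SPL libraries lay below NC, while EUC3 and EPL1 stood above every NC library and the other 4 E. coli libraries stood below. The log2 fold changes were -0.09 in EUC (95% interval -0.32 to 0.15), -0.14 in EPL (-0.37 to 0.09), -0.21 in SUC (-0.44 to 0.03) and -0.15 in SPL (-0.38 to 0.09), with edgeR adjusted p = 0.569, 0.344, 0.178 and 0.338. The related RAC1, which can take the place of RAC2 in the complex, had 337 ± 17.3 CPM in NC (SD, n = 3), and its log2 fold change was 0.51, 0.42, 0.46 and 0.32 for EUC, EPL, SUC and SPL, past the adjusted p threshold in EUC alone.

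SOD2, on chromosome 6 (159669069 to 159762529, minus strand), encodes the manganese superoxide dismutase of mitochondria. Its NC level was 78.2, 76.9 and 82.3 CPM. EUC had 4898, 5821 and 6855 CPM, and EPL had 4809, 4987 and 5055 CPM. The S. aureus groups were lower, with 3433, 2960.4 and 3588 CPM in SUC and 3534, 3351 and 3669 CPM in SPL. Each BEV library was far above NC, each E. coli library was above each S. aureus library, and the groups given vesicles of 1 species overlapped. SOD2 had a log2 fold change of 6.21 in EUC (SE 0.130, edgeR adjusted p = 1.22e-15), 5.97 in EPL (SE 0.128, edgeR adjusted p = 1.94e-15), 5.39 in SUC (SE 0.125, edgeR adjusted p = 6.6e-15) and 5.47 in SPL (SE 0.125, edgeR adjusted p = 4.78e-15). These are folds of 74, 62.6, 42.0 and 44.5, and 102 to 127 of the 17198 tested genes had a larger log2 fold change. SOD2 took 0.00823% to 0.00877% of the counts in NC and 0.295% to 0.627% in the BEV libraries.

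The SOD2 gene overlaps WTAP, which lies on the opposite strand, by 30735 bases in GENCODE 44, and the strand setting of the counting is not given in the sources used here. WTAP, which encodes a part of the RNA methylation complex, was itself an up-regulated DEG, with log2 fold changes of 1.89, 1.69, 1.51 and 1.46 in EUC, EPL, SUC and SPL. Without strand, reads of the shared stretch cannot be told apart between the genes. The reads counted on WTAP came to 87 ± 2.11 CPM in NC and 324 ± 61.7 CPM in EUC (SD, n = 3 each), and those on SOD2 in EUC to 5858 ± 979 CPM. SOD2 was matched by symbol, because the table and GENCODE 44 give it different identifiers. Its 11 coding transcripts run from 507 to 14167 bases, and no level per length is compared for it here.

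SOD1, on chromosome 21 (31659666 to 31668931, plus strand), encodes the copper and zinc superoxide dismutase. Its NC level was 99.0, 119.6 and 123 CPM. EUC had 129, 157 and 211 CPM, and EPL had 162, 125 and 133 CPM. SUC had 143, 147 and 192 CPM, and SPL had 151, 161 and 141 CPM. All 12 BEV libraries lay above NC, but an EPL library at 125 CPM stood next to an NC library at 123 CPM, and the highest levels were again in EUC3 and SUC3. The log2 fold change was 0.54 in EUC (95% interval 0.21 to 0.88, edgeR adjusted p = 0.0111), 0.30 in EPL (-0.04 to 0.63, 0.153), 0.50 in SUC (0.16 to 0.83, 0.0246) and 0.41 in SPL (0.07 to 0.75, 0.0573). Leaving out EUC1, EPL1 or SUC3 alone gave an adjusted p of 0.00129, 0.00904 or 0.00596 for EUC, and leaving out EUC1 or EUC3 gave 0.00953 or 0.00442 for SUC (edgeR). DESeq2 on all 15 libraries gave SOD1 an adjusted p of 0.00367 in EUC. Without the low-count filter, SOD1 passed in EUC, SUC and SPL (edgeR adjusted p = 3.31e-06, 2.22e-05 and 0.000966). With NC and 1 BEV group alone in the fit, SOD1 passed in SUC and SPL (edgeR adjusted p = 0.00918 and 1.07e-06) and not in EUC or EPL.

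**Figure D4:**
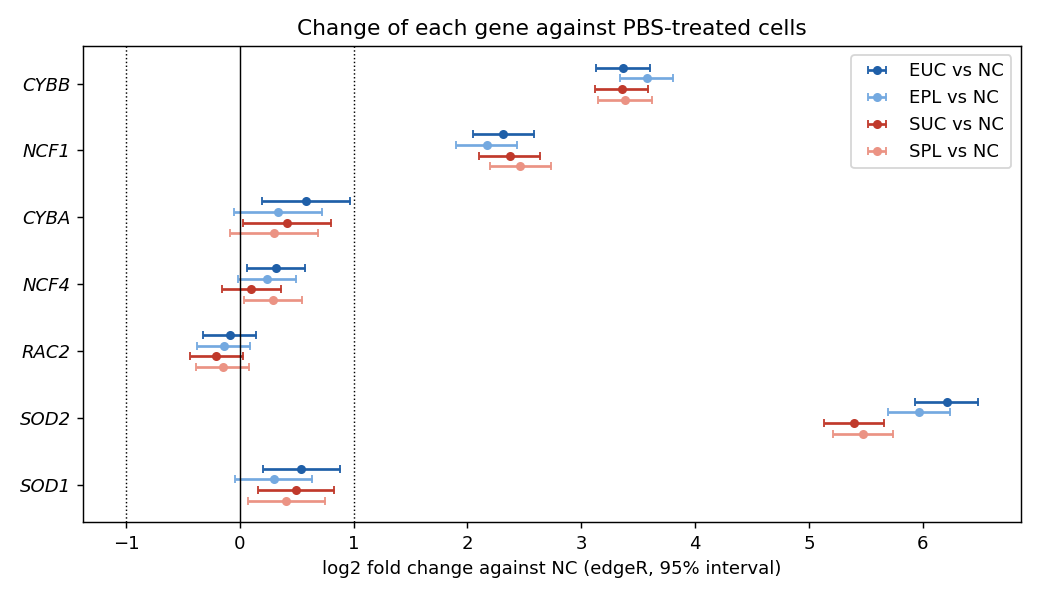
Log2 fold change against NC (horizontal axis) of the 7 genes in EUC, EPL, SUC and SPL, with 95% intervals from edgeR; dotted lines mark -1 and 1. SOD2, CYBB and NCF1 lie beyond 1 in all 4 groups, and the intervals of CYBA, NCF4, RAC2 and SOD1 lie between -1 and 1.

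The second question was whether the isolation method mattered. Between EPL and EUC, 0 of the 7 genes were DEGs or passed the adjusted p in edgeR or in DESeq2, as for all genes together (0%). An unadjusted edgeR p under 0.05 was found for 2 of 7, against 604 of 17198 tested genes at 0.05 or less. The 2 of the 7 genes were SOD2, with a log2 difference of -0.24 (95% interval -0.46 to -0.02), and CYBB, with 0.20 (0.00 to 0.41). Their edgeR adjusted p was 0.947 each. The groups of CYBB did not overlap, since the lowest EPL library at 106 CPM was above the highest EUC library at 104 CPM, as was the case for 6.37% of all genes. For the others the log2 difference was -0.24 for CYBA (-0.63 to 0.14), -0.14 for NCF1 (-0.40 to 0.11), -0.08 for NCF4 (-0.33 to 0.18), -0.05 for RAC2 (-0.29 to 0.18) and -0.24 for SOD1 (-0.58 to 0.09). Between SPL and SUC, 0 of 7 genes passed any threshold in either tool and 0 had an unadjusted p under 0.05. Over all 17198 tested genes, 0.00581% were DEGs and 1000 had an unadjusted edgeR p of 0.05 or less. NCF4 was the gene whose libraries did not overlap, at 151 to 158 CPM in SPL and 128 to 149 CPM in SUC, which held for 12.8% of all genes. The log2 differences were 0.08 for SOD2 (-0.14 to 0.30), 0.03 for CYBB (-0.17 to 0.23), 0.10 for NCF1 (-0.16 to 0.35), 0.19 for NCF4 (-0.07 to 0.44), 0.06 for RAC2 (-0.18 to 0.29), -0.11 for CYBA (-0.50 to 0.27) and -0.09 for SOD1 (-0.42 to 0.25). Each of these intervals lies within a change of 2-fold, and none shows the methods to be equal. The difference between the 2 method effects was largest for SOD2, at 0.32 on the log2 scale (0.02 to 0.63), with an adjusted p of 1 in edgeR, and 0 of 7 genes passed the adjusted p in either tool.

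The third question was whether the E. coli groups (EUC and EPL) differed from the S. aureus groups (SUC and SPL), which also differed in dose. SOD2 was higher with E. coli vesicles, by 0.65 on the log2 scale (SE 0.0731, 95% interval 0.50 to 0.81, edgeR adjusted p = 2.11e-05), a fold of 1.57. The 6 E. coli libraries had 4809 to 6855 CPM (median 5021) and the 6 S. aureus libraries had 2960.4 to 3669 CPM (median 3484), with no overlap, as for 4.29% of all genes. SOD2 was 1 of the 7 genes past the adjusted p, which 2.87% of all genes passed in this direction, and it was not a DEG because the fold was under 2, while 0.686% of all genes were DEGs. The log2 difference was 0.10 for CYBB (-0.04 to 0.25), 0.10 for CYBA (-0.17 to 0.37), 0.08 for NCF4 (-0.10 to 0.26), 0.06 for RAC2 (-0.10 to 0.23) and -0.03 for SOD1 (-0.27 to 0.20). NCF1 had -0.18 (-0.35 to 0.00, edgeR adjusted p = 0.303), and without EPL1 it was -0.28 and passed (edgeR adjusted p = 0.00806). EPL1 had the highest NCF1 level of the 6 E. coli libraries, so that a lower value and a smaller spread follow from leaving it out. With the counts of the NCF1 copies summed the difference was -0.16 (edgeR adjusted p = 0.463).

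The remaining genes of the pathway were taken from 7 lists, with 55 genes reported here, of which 46 were tested and 9 had too few counts: NOX3, NOX4, DUOXA1, DUOXA2, SOD3, EPX, DUOX2, NOXO1 and NOX5. The tested genes included 8, 6, 6 and 6 up-regulated DEGs in EUC, EPL, SUC and SPL, and 3 down-regulated DEGs in each, against 9.43%, 9.38%, 6.82% and 7.76% of all tested genes higher and 5.75%, 5.15%, 3.06% and 3.7% lower. The 4 oxidase partners reported here, RAC1, RAP1A, CYBC1 and HVCN1, held no DEG. In these groups 2, 1, 1 and 0 of the 4 were higher past the adjusted p in edgeR. Over all tested genes, 30.5%, 29.2%, 21.5% and 23.9% passed it in either direction. RAP1A, a small GTPase found with the flavocytochrome, had log2 fold changes of 0.48, 0.43, 0.46 and 0.37. The median log2 fold change of these 4 partners was 0.23, 0.03, 0.23 and 0.15, against a median near 0 over all tested genes. It leaves out what is not reported here and is not the median of the full list of partners. The 3 tested relatives among other oxidases held no DEG, and NOXA1, an activator of NOX1, fell in each group by less than 2-fold (log2 fold change -0.98, -0.71, -0.84 and -0.90, past the adjusted p in edgeR).

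Among 12 genes that act on oxidase activation, 4 higher genes passed the adjusted p in each BEV group. It was also passed by 1 lower gene in EUC and EPL and by 2 lower genes in SUC and SPL. Over all tested genes, 30.5%, 29.2%, 21.5% and 23.9% passed it in either direction in EUC, EPL, SUC and SPL. VAV1, an exchange factor for Rac, and PLA2G4A, a phospholipase that releases arachidonic acid, were DEGs in EUC, with log2 fold changes of 1.04 and 1.15. In EPL, SUC and SPL the values were 0.97, 0.70 and 0.84 for VAV1 and 0.95, 0.83 and 0.91 for PLA2G4A, below the fold threshold though past the adjusted p. None of the 3 tested genes that support the dismutases, CCS, ATOX1 and SLC31A1, passed the adjusted p in any comparison with NC.

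Among 17 genes of peroxide removal, 4 were up-regulated and 1 was a down-regulated DEG in each comparison with NC. Over all tested genes, 9.43%, 9.38%, 6.82% and 7.76% were up-regulated DEGs in EUC, EPL, SUC and SPL. Down-regulated DEGs were 5.75%, 5.15%, 3.06% and 3.7%. GPX3, a secreted glutathione peroxidase, rose from 1.85 ± 0.295 CPM in NC to 25.7 ± 8.05, 26.7 ± 6.1, 20.9 ± 3.96 and 24.2 ± 1.17 CPM in EUC, EPL, SUC and SPL (SD, n = 3 each), with log2 fold changes of 3.80, 3.85, 3.50 and 3.71. SRXN1, which repairs oxidised peroxiredoxins, had 2.32, 1.47, 1.74 and 1.48. Its levels were low, with means of 1.13 CPM in NC and 3.15 to 5.68 CPM in the BEV groups. TXNRD1, the cytosolic thioredoxin reductase, had log2 fold changes of 1.81, 1.69, 1.53 and 1.59, and GSR, the glutathione reductase, had 1.77, 1.62, 1.58 and 1.51. CAT, which encodes catalase, fell from 479 ± 2.56 CPM in NC to 159 ± 10.0, 162 ± 4.59, 217 ± 10.5 and 197 ± 5.26 CPM in EUC, EPL, SUC and SPL (SD, n = 3 each). Its log2 fold change was -1.59, -1.57, -1.14 and -1.28, and it was lower with E. coli than with S. aureus vesicles, by -0.37 (edgeR adjusted p = 0.000141). Despite these members the median of the list stayed between -0.01 and 0.14 in the 4 comparisons.

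Both tested peroxidases that use hydrogen peroxide fell and were DEGs in each comparison with NC. Down-regulated DEGs made up 5.75%, 5.15%, 3.06% and 3.7% of all tested genes in EUC, EPL, SUC and SPL. MPO, the myeloperoxidase of myeloid granules, went from 10.2 ± 0.308 CPM in NC to 3.38 to 4.21 CPM in the BEV groups, with log2 fold changes of -1.59, -1.31, -1.31 and -1.27. LPO had -1.08, -1.30, -1.21 and -1.33, at low levels of 4.42 CPM in NC and 1.76 to 2.08 CPM in the BEV groups (means). Among the 5 enzymes reported here that supply NADPH, the substrate of the oxidase and of both reductases, ME1 rose most. It went from 54.0 ± 3.18 CPM in NC to 325 ± 47.9 in EUC and 265 ± 18.3 in SUC (SD, n = 3 each), with log2 fold changes of 2.59, 2.48, 2.29 and 2.32. PGD of the pentose phosphate pathway had 1.20, 1.14, 1.08 and 1.17. Of these 5, IDH1, IDH2 and NNT had lower levels than in NC. In EUC, EPL, SUC and SPL, 2, 3, 2 and 2 of them passed the adjusted p in edgeR. Over all tested genes, 30.5%, 29.2%, 21.5% and 23.9% passed it in either direction. IDH1, the cytosolic isocitrate dehydrogenase, fell from 91.2 ± 3.49 CPM in NC to 52.6 ± 8.33 in EUC (SD, n = 3 each), with log2 fold changes of -0.80, -0.87, -0.54 and -0.64. NNT, the mitochondrial transhydrogenase, had -0.77, -0.72, -0.49 and -0.59, and IDH2 had -0.32, -0.38, -0.20 and -0.28 and passed in EPL. The median of these 5 enzymes was -0.32, -0.38, -0.20 and -0.28. It leaves out what is not reported here, is not the median of the full list and does not describe NADPH supply as a whole.

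**Figure D5:**
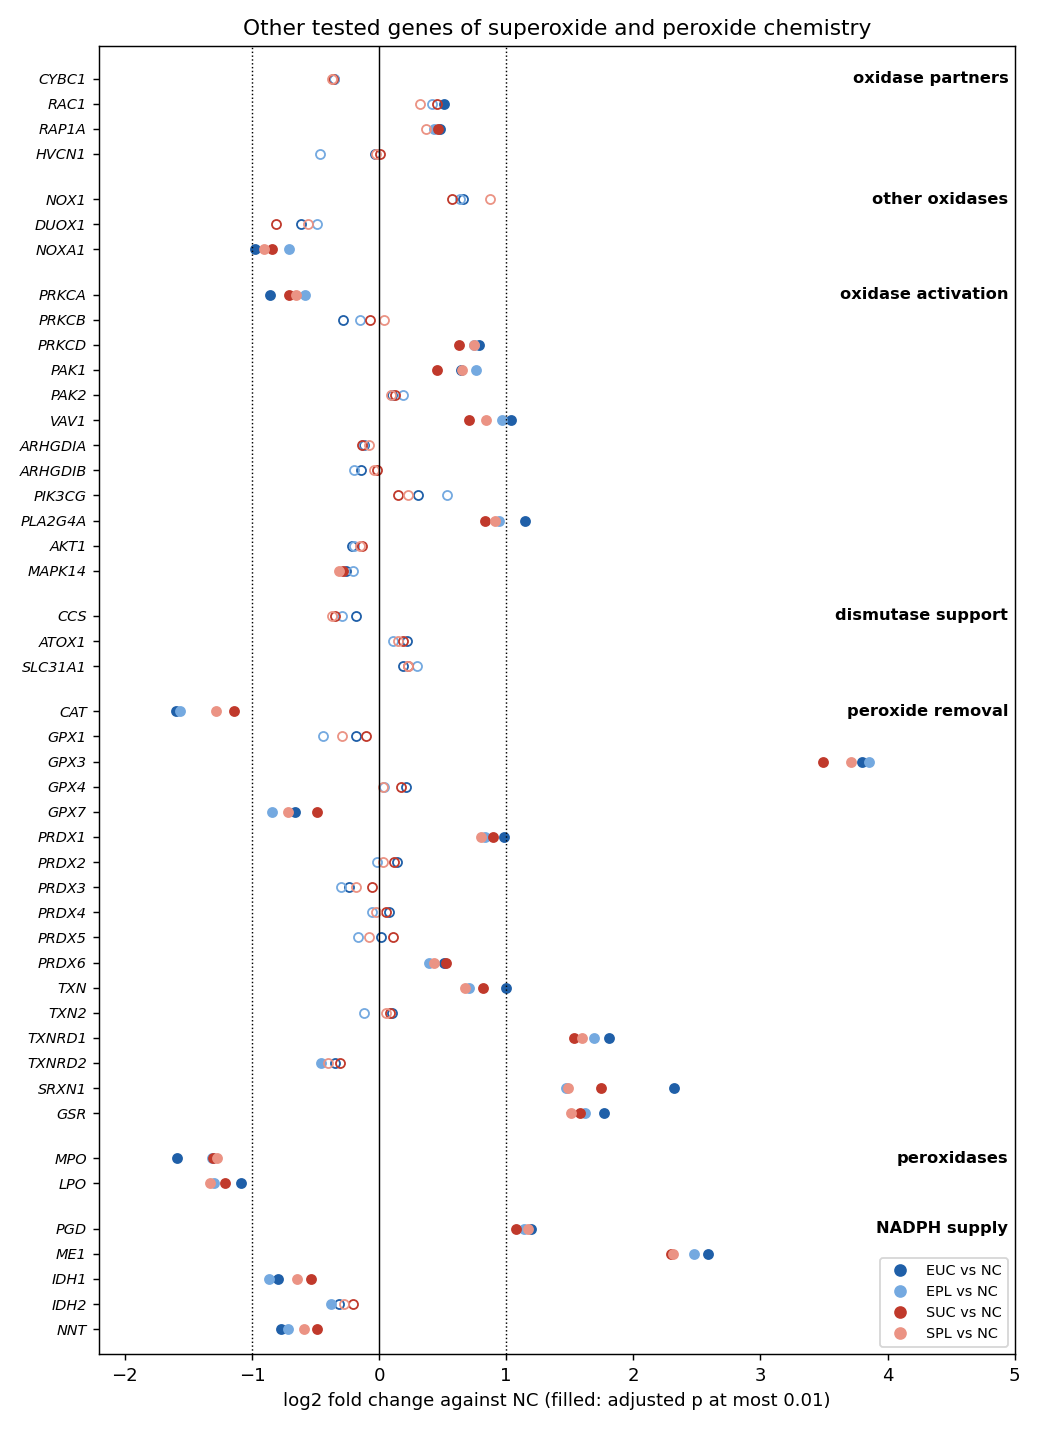
Log2 fold change against NC (horizontal axis) of 46 tested genes of the 7 lists, in EUC, EPL, SUC and SPL; filled points had an adjusted p of at most 0.01 in edgeR and dotted lines mark -1 and 1. GPX3, SRXN1, TXNRD1, GSR, ME1 and PGD lie above 1 and CAT, MPO and LPO below -1 in all 4 groups.

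The profiles most like those of the 7 genes were sought over the 15 libraries among 14525 genes, by the root mean square difference of centred log2 CPM. For SOD2 they were IGFBP3 (0.163), CXCL2 (0.194) and SERPINE2 (0.219), and for CYBB they were DRAM1 (0.173), POU2F2 (0.174) and BCL6 (0.177). For NCF1 they were GPR84 (0.143), its copy NCF1C (0.143) and ALAS1 (0.146). CYBA was nearest to TMSB10 (0.0491), SEC61B (0.0611) and UBE2S (0.0666), SOD1 to the proteasome genes PSME1 (0.0679), PSMD4 (0.0703) and PSMC5 (0.0734), NCF4 to RHBDD2 (0.0683), DCAF15 (0.0687) and FBXW5 (0.0748), and RAC2 to RHOT2 (0.0478), GRN (0.0489) and FLAD1 (0.0534). The points share the groups and the libraries, and the small distances of the last 4 genes are those of genes that varied little.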

How the data were processed

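RNA of THP-1 cells in 5 groups of 3 libraries was sequenced by the submitters. The authors deposited 1 table of raw read counts per gene for the 15 libraries. Their processing notes name FastQC 0.11.5, HISAT2 2.1.0, StringTie 1.3.3b, featureCounts, DESeq 1.28.0 and the build hg38. The sources used here do not give the annotation, strand setting or treatment of multiply matching reads, which bears on NCF1 and SOD2. No value column was left unused.

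Groups were taken from the labels. Counts were tested in 1 fit of all 15 libraries with edgeR 4.0.16 in R 4.3.3 (filterByExpr, TMM scaling, quasi-likelihood F-test) in 8 comparisons, with Benjamini-Hochberg adjustment over 17198 genes. The SE was the absolute log2 fold change over the square root of F. The thresholds (adjusted p 0.01, log2 fold change 1) follow the methods of the study. DESeq2 1.42.0, 3 other scalings, no count filter, a replicate block, the compared groups only, summed NCF1 copies and the omission of each library were alternatives. A further one, without EUC2, EUC3, EPL1 and SUC3 together, was chosen after seeing the data. On simulated counts for EUC against NC (17198 genes, 200 changed), 78.5% of 2-fold and 98.5% of 4-fold changes passed the adjusted p. The fold threshold was not applied there, and the 2-fold changes had a median log2 estimate of 0.984. These shares thus do not describe DEG calls. The counts were drawn with a spread fitted as a trend, without outlying libraries. Replicate libraries were compared by a chi-square test, which gave 2.18 to 43.3 per degree of freedom over 15 pairs, and 0 pairs were identical.

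The 7 genes and the lists were chosen with earlier results of these data known. Named list genes were DEGs against NC in at least 1 group, at most 4 per list by mean absolute log2 fold change, with close copies, overlapping genes and nearest profiles besides. Some list genes are not reported here. Genes outside that rule (NOXA1, RAP1A and the other oxidase partners, IDH1, IDH2, NNT, the markers, genes with too few counts and those of small counts) were named after their values were seen. Positions come from GENCODE 44 on hg38 and promoters from RefSeq on GRCh38.p14.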

Additional observations from a re-analysis of the deposited data

How the results depend on the processing

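Over all alternatives the number of DEGs among the 7 genes stayed at 3 in each comparison with NC and at 0 elsewhere, and SOD2, CYBB and NCF1 passed the adjusted p against NC in all 24. The log2 fold change of SOD2 ranged from 5.95 to 6.32 in EUC and from 5.27 to 5.48 in SUC, and its species difference from 0.56 to 0.71. What changed was the number of genes past the adjusted p alone, which in the main analysis was 3 against NC and 1 between species. In EUC it was 5 with DESeq2 and 5 without a count filter, and 3 to 6 when 1 library was left out (5 without EUC1 or SUC3, 6 without EPL1), and 4 with the size factors of DESeq2 in edgeR. In EPL it was 4 without a count filter and 4 without EUC2, EUC3, EPL1 and SUC3. In SUC it was 5 without a count filter, 4 with the compared groups only, and 3 to 4 when 1 library was left out (4 without EUC1 or EUC3). In SPL it was 4 without a count filter and 6 with the compared groups only, and without the same 4 libraries it was 6 in SUC and SPL. Between species it was 1 or 2 with 1 library left out (2 without EPL1) and 2 without those 4 libraries, the added gene being NCF1. The added genes were CYBA, SOD1 and NCF4 in EUC, CYBA and RAC2 in EPL, CYBA, SOD1 and RAC2 in SUC, and CYBA, NCF4 and SOD1 in SPL. The 4 libraries hold the highest levels of CYBA and several of the highest of SOD1 and RAC2, so that the values without them follow in part from that choice and add no support. The number past the adjusted p among all 17198 tested genes moved as well. In EUC it was 5251 in the main analysis, 5688 with DESeq2, 5520 without EPL1 and 5104 without EUC1. With the compared groups only it was 6668 in SPL against 4114 in the main analysis, 3750 in SUC against 3697, and 4294 in EUC. The cause of the other changes was not tested.

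Changes of sign were confined to log2 values that passed no threshold. NCF4 in SUC was -0.0197 with scaling by library size, and without the 4 libraries the species values of CYBA, NCF4 and RAC2 were -0.0872, -0.0528 and -0.0545. Leaving out 1 library gave, for EPL against EUC, -0.25 to 0.045 for NCF4 and -0.205 to 0.0363 for RAC2. For SPL against SUC it gave -0.222 to 0.0762 for CYBA, -0.0323 to 0.138 for CYBB and -0.163 to 0.0619 for SOD1. Between species it gave -0.0168 to 0.197 for CYBA, -0.00581 to 0.142 for NCF4, -0.0128 to 0.108 for RAC2 and -0.139 to 0.0433 for SOD1, and for the method by species difference -0.109 to 0.319 for CYBA and -0.0542 to 0.309 for SOD1.

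Replicate numbers are shared between groups. Of 30 pairs of libraries with the same number, 7 had a correlation of deviations above 0.1 (range -0.45 to 0.52, highest for EUC3 and SUC3), as did 12 of 60 pairs with other numbers (highest 0.488, EUC3 and EPL1), and the numbers were not taken to pair the samples. With the replicate number as a block, 3 of the 7 genes were still DEGs in each comparison with NC, and all-gene DEGs were 2553 in EUC against 2610 without the block. The 95% intervals of CYBA, NCF4, RAC2 and SOD1 against NC ran from -0.44 to 0.97 at their widest. They rest on the spread estimated from all 15 libraries. With SPL and NC alone in the fit, the SE was 0.0582 for CYBA, 0.0565 for NCF4 and 0.0643 for SOD1. The intervals are thus not a fixed limit of 3 libraries a group.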
